A study of Homo sapiens with 8 samples.

Results

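The genes described here are 37 interferon-stimulated genes, taken as a named list, of 19617 protein-coding genes of GENCODE version 44 on the chromosomes in the peak lists. All 37 were found in the annotation. They comprise 22 antiviral effectors, 4 transcription factors, 3 genes of the ISG15 system and 8 others. Accessible chromatin was mapped by ATAC-seq, in which the Tn5 transposase cuts and tags exposed DNA, in HEK293T, a transformed human embryonic kidney line. The E92K group held 4 libraries from HEK293T-H2A(E92K) cells with an H2A(E92K)-lentivector. The H2A group held 4 libraries from HEK293T-H2A cells with the H2A-lentivector. Neither group has a treatment in the labels, and no interferon is named. H2A is a core histone, and E92K replaces a glutamate of its acidic patch with a lysine. The labels call the cells transfected in one place and vector-carrying in another. They do not say whether a line is 1 clone or whether libraries of a group came from separate cultures, so p-values measure the spread between these libraries, which may be technical.

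Type I interferons are secreted when cells sense viral nucleic acid. They bind a receptor on the same or neighbouring cells, whose JAK kinases activate STAT proteins, STAT2 among them. Together with IRF9 these form a complex that binds the interferon-stimulated response element, or ISRE, near the start of its target genes. The products block virus entry, bind or degrade viral RNA and tag proteins with ISG15. Many of these genes are silent or nearly so until interferon arrives, so the state of their promoters in resting cells is of interest in its own right.

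The promoter of a gene was taken as all bases no farther than 1000 bp from a transcription start site (TSS) of its basic protein-coding transcripts. It was called open in a library whose list had a peak touching it. A gene without a peak was not detectably open at that library's depth, which does not show closed chromatin. The lists held 55527 to 61850 peaks in E92K libraries and 57439 to 62044 in H2A libraries. Median summits held 30 to 34 fragments. The genome-wide background, a measure of relative depth, was 2.234 to 2.677 fragments in E92K libraries and 2.522 to 2.929 in H2A libraries. All 10 marker genes listed for HEK293T cells had open promoters in all 8 libraries, as had 68.0% of all protein-coding genes. The marker lists were chosen with earlier results of these data known. No leukocyte marker of 6 was open in every library, and PTPRC, the pan-leukocyte phosphatase, was open in 1 E92K library. None of 3 endothelial markers was open in any library. Of 3 hepatocyte markers TTR was open in all 8, APOA1 in 1 E92K library and ALB in none.

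Of the 37 interferon-stimulated genes, 22 had an open promoter in all 8 libraries, 6 in some and 9 in none. These are 59.5%, 16.2% and 24.3% of the list, against 68.0%, 6.3% and 25.6% of all protein-coding genes. The members open in a library numbered 22, 24, 25 and 24 in the E92K libraries, against 24, 24, 27 and 25 in the H2A libraries. The 2 groups overlapped, with means of 23.75 ± 1.26 in E92K and 25 ± 1.41 in H2A (SD, n = 4 each). Over all protein-coding genes the means were 13890.5 ± 84.48 and 13932.75 ± 62.99 open genes in E92K and H2A libraries (SD, n = 4 each).

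The signalling genes among the members were the most uniformly open. All 4 transcription factors had a promoter peak in all 8 libraries. They are STAT2 and IRF9, subunits of the complex that binds the ISRE, and IRF1 and IRF7, which amplify the response. The same held for all 3 genes of the ISG15 system: ISG15, the ubiquitin-like protein, HERC5, the ligase that attaches it, and USP18, which removes it and dampens receptor signalling. The antiviral effectors were divided, with 10 of 22 open in all libraries, 5 in some and 7 in none. Those never open were IFITM3, a membrane protein that blocks virus entry, OAS1 and OAS2, which make the second messenger that activates RNase L, and BST2, also called tetherin, which holds budding virions at the cell surface. SAMD9L, the ubiquitin ligase TRIM22 and the GTPase GBP2 were never open either. Of the 8 others, IFI44 and XAF1 were open in no library.

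**Figure D1:**
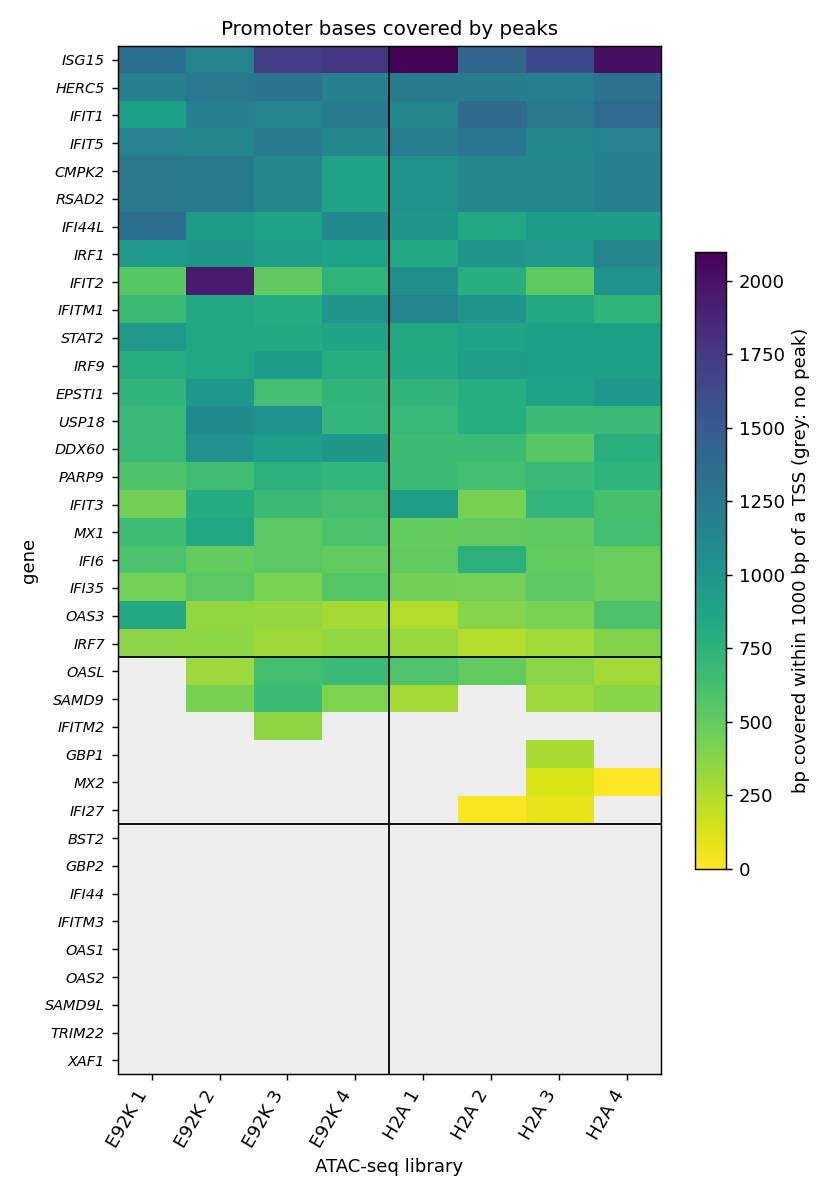
Bases covered by peaks within 1000 bp of a TSS for the 37 genes (rows) in the 4 E92K and 4 H2A libraries (columns), with grey for no peak. Horizontal lines separate the 22 genes open in all 8 libraries, the 6 open in some and the 9 open in none.

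With all starts of the basic transcripts counted, paralogues side by side on a chromosome shared their state in the IFIT cluster and differed in the others. On chromosome 10, IFIT2, IFIT3, IFIT1 and IFIT5, which recognise viral RNA, all had open promoters. On chromosome 11 the promoter of IFITM1 was open in all 8 libraries, that of IFITM2 in 1 E92K library, and that of IFITM3 in none. On chromosome 12, OAS3 was open in all 8 libraries while OAS1 and OAS2 on either side of it were open in none. On chromosome 21, MX1 was open in all 8 libraries and MX2 in 0 E92K and 2 H2A libraries. On chromosome 1, IFI44L was open in all 8 and IFI44 next to it in none. The pattern depends on the starts counted. At the start that Ensembl ranks first, IFIT2 was open in 1 E92K and 1 H2A library, and MX1, like MX2, in none. With the starts of all protein-coding transcripts, IFITM3 was open in 4 E92K and 4 H2A libraries. Reads that align equally well to paralogues could have been dropped or divided by the authors' processing, which is not given for these genes, so the counts for near-identical family members carry that uncertainty.

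For 4 of the 22 members open everywhere, the peaks did not all lie within 1000 bp of the canonical TSS, the start that Ensembl ranks first. MX1, a GTPase that traps viral nucleocapsids, had no peak within 1000 bp of its canonical TSS in any library, and its promoter peak was centred -5791 bp from it, at an alternative start. RSAD2, the radical-SAM enzyme viperin, likewise had none at its canonical TSS, and its peak, centred -11793 bp away, is the one that covers the start of CMPK2, a nucleotide kinase on the opposite strand. IFIT2 had a peak at its canonical TSS in 1 E92K and 1 H2A library, and its constant peak was centred -18066 bp away. ISG15 had its strongest window peak centred -13112 bp from the canonical TSS, where it also covers a start of HES4, another gene, yet a weaker region at chr1:1012934-1013891, over the canonical TSS, was present in all 8 libraries. Its fold there was 4.11, 3.97, 4.10 and 3.20 in E92K libraries, against 4.01, 3.57, 4.52 and 4.66 in H2A libraries. The promoter peaks of IFIT5 and PARP9 also cover a start of another gene: LIPA for IFIT5 and DTX3L for PARP9. With the canonical TSS alone, 19 members were open in all 8 libraries and 13 in none.

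ISRE cores were found in promoters of open and of unopened members. RefSeq promoters on GRCh38.p14, each from 250 bases before to 50 after a start, were on hand for 28 of the 37 members. The ISRE core GAAANNGAAA, searched on both strands, was in the promoters of 20 of these 28 members (71.4%), against 4.2% of 15843 protein-coding genes. It was in 14 of 19 members open in all 8 libraries, 3 of 3 open in some and 3 of 6 open in none. State and core can come from different promoters of a gene: the only RSAD2 core lay in a promoter that no peak touched. Of 39 cores found in members' promoters, overlapping matches included, 22 lay inside a peak in all 8 libraries, 12 in no library and 5 in 1 to 7 libraries. The sequences below show that well-formed cores sit in promoters of each state. They are shown for the strongest peaks among members open everywhere, for the members open in some libraries and for those open in none, on the strand of the gene, 5′ to 3′. Capitals mark the ISRE core or its reverse complement, and IFIT3 was added after its values were seen.

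The members IFI6 (chr1:27672246-27672315, minus strand), DDX60 (chr4:168318766-168318840, minus), HERC5 (chr4:88457015-88457084, plus) and IFIT5 (chr10:89414534-89414587, plus) were open in all 8 libraries, and the cores nearest their starts lay inside a peak in 4 of 4 E92K and 4 of 4 H2A libraries.
IFI6: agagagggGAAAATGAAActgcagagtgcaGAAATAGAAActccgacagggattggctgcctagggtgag
DDX60: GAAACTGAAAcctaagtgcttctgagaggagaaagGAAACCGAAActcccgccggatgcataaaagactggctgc
HERC5: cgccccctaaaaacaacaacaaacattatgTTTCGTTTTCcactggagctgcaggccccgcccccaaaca
IFIT5: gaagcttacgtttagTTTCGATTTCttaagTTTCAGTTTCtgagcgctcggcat

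IFIT3 (chr10:89327841-89327914, plus strand) was open in all 8 libraries too, but the peaks took in the 2 cores shown in 2 E92K and 3 H2A libraries.
IFIT3: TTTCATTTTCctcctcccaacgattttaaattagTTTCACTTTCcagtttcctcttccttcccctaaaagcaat

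The members SAMD9 (chr7:93118076-93118145, minus strand), GBP1 (chr1:89065296-89065365, minus) and IFI27 (chr14:94110611-94110680, plus) were open in some libraries. The SAMD9 core was inside a peak in 3 E92K and 3 H2A libraries, and the cores of GBP1 and IFI27 in none. The GBP1 peak lay elsewhere in the window, and the IFI27 peaks lay mostly outside the window and reached only its edge.
SAMD9: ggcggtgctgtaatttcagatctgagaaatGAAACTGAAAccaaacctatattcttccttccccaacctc
GBP1: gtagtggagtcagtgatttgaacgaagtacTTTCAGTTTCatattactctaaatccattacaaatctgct
IFI27: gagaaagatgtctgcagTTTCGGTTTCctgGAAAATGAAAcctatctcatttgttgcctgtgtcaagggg

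The members BST2 (chr19:17405715-17405784, minus strand), IFI44 (chr1:78649741-78649808, plus) and IFITM3 (chr11:320856-320925, minus) were open in no library, and none of their cores was inside a peak.
BST2: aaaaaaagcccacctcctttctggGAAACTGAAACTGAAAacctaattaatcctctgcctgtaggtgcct
IFI44: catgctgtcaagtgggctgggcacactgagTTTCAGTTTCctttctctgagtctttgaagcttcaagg
IFITM3: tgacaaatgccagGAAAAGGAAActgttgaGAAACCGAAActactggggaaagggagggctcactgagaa

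The match is to letters and shows no binding. The letters TTCNNNGAA of the interferon-gamma activated site were in promoters of 10 of the 28 members (35.7%), IRF1, IRF9 and OAS1 among them, against 9.0% of protein-coding genes. GGGCGG, the GC box, was in 13 (46.4%) against 64.3%, and TATAAA in 4 (14.3%) against 12.4%. CpG, the dinucleotide dense in constitutively used promoters, was scarcer in the members that were not open everywhere. The observed-to-expected CpG ratio had a median of 0.75 in the 19 members open in all 8 libraries, 0.30 in the 3 open in some and 0.09 in the 6 open in none. The median over protein-coding genes was 0.80. Where a gene has several promoters the highest ratio was taken. For MX1 this was 0.91, at a promoter that no peak touched, against 0.7 at its open one. Exceptions were found among the open members: IFI44L had a ratio of 0.00, IFITM1 0.18, and IFIT1 and IRF9 0.26 each, and all 4 had a peak in all 8 libraries. For IFI44L the ratio is not that of the summit. Its summits lay -704 to -355 bp from the canonical TSS, upstream of the sequence scored, which only the downstream part of the peaks reached. The summits of IRF9 lay inside the sequence scored, as did those of IFITM1 and IFIT1 in most libraries. These values are a description of the members, without a test.

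**Figure D2:**
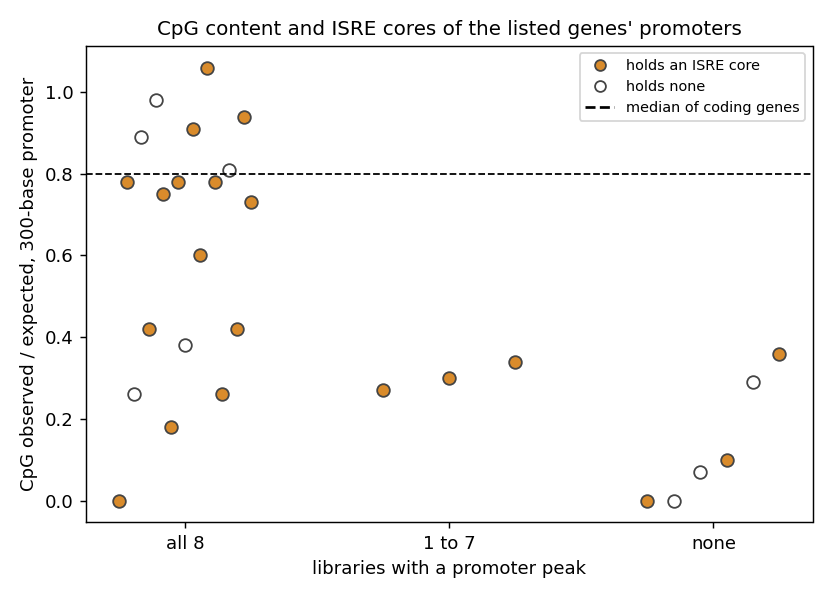
Observed-to-expected CpG ratio of the 300-base promoter (highest where RefSeq lists several) for 28 members, by the number of libraries with a promoter peak. Filled points hold an ISRE core, and the dashed line is the median of protein-coding genes, 0.80; the members open in none lie at 0.36 or lower.

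No member's promoter separated E92K from H2A libraries by presence. Over all protein-coding genes, 1 (0.0051%) had a promoter peak in 4 E92K and 0 H2A libraries, and 5 (0.0255%) in 0 E92K and 4 H2A libraries. Of the 37 members 0 did so in either direction. A two-sided Fisher's exact test, adjusted by Benjamini-Hochberg over 19617 genes, passed none, and 6 genes, no member among them, had an unadjusted p below 0.05. The smallest p that 4 against 4 libraries allow is 0.0286.

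The 6 members open in some libraries had weak peaks. OASL, an oligoadenylate synthetase-like protein that enhances RNA sensing, was the most regular. Its promoter had 0, 309, 632 and 665 covered bp in E92K libraries, against 580, 507, 363 and 295 in H2A libraries. The peak was thus missing in 1 E92K library and the groups overlapped (3 of 4 against 4 of 4, Fisher's exact p = 1.0). SAMD9, a restriction factor of poxviruses, had 0, 428, 661 and 407 covered bp in E92K libraries, against 282, 0, 306 and 375 in H2A libraries. One library of each group lacked its peak, and where present its fold was 3.99 to 4.55.

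The other 4 appeared in 1 or 2 libraries. IFITM2 had 355 covered bp in E92K library 3 and a peak in no other. GBP1, a GTPase that attacks pathogen-containing vacuoles, had 265 covered bp in H2A library 3 and none in the rest. MX2, a nuclear-pore-associated restriction factor of HIV, had 117 and 3 covered bp in H2A libraries 3 and 4 and none in any E92K library. These were 2 separate peaks, at chr21:41369324-41369568 in library 3 and chr21:41360567-41361009 in library 4. A peak of H2A library 2, wholly outside the 1000 bp window, touched the peak of library 4. With a 2000 bp window the share of open libraries, E92K minus H2A, was -0.75 for MX2 (Fisher's exact p = 0.1429). IFI27, a mitochondrial protein, had 15 and 70 covered bp in H2A libraries 2 and 3, at the edge of a window. The peak behind IFI27 was also called in 1 E92K library, there outside the window. For MX2, with both peaks pooled, and IFI27 the difference of 0 of 4 E92K against 2 of 4 H2A libraries had a Fisher's exact p of 0.4286.

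**Figure D3:**
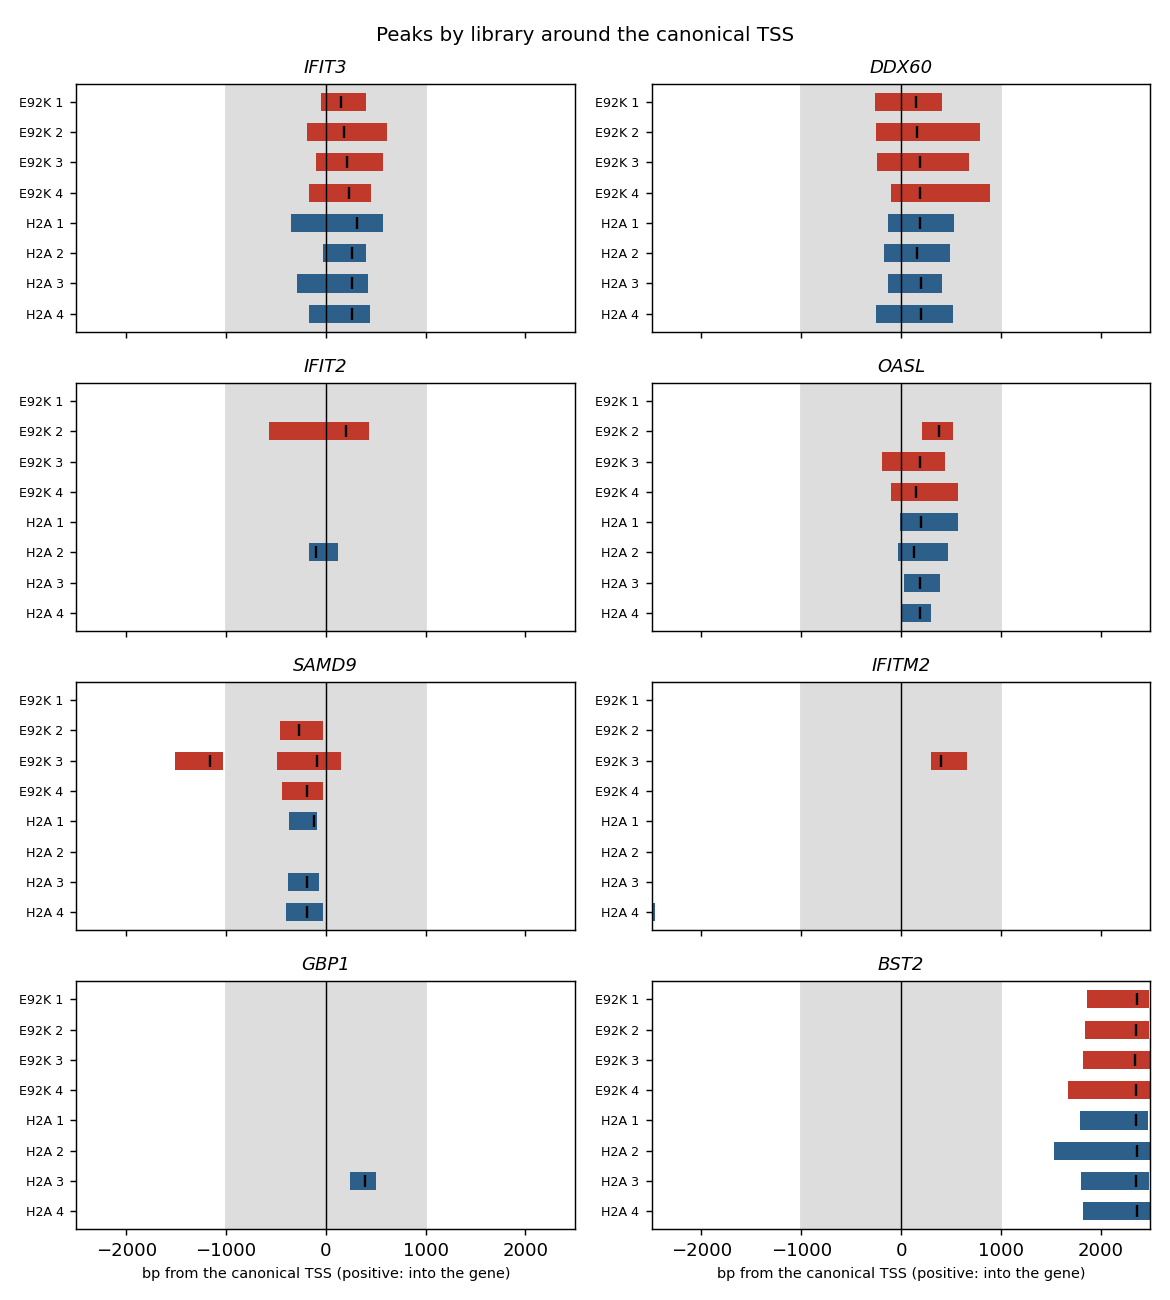
Peaks (bars) and their most significant summits (ticks) near the canonical TSS of 8 members in each E92K and H2A library; grey marks the 1000 bp on each side. IFIT3 and DDX60 have a peak in every library, OASL in 7, SAMD9 in 6, IFIT2 in 2, IFITM2 and GBP1 in 1 at the canonical TSS, and BST2 only within the gene.

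Peaks over the members' promoters ranged from very strong to near the calling limit. Strength is given as the authors' fold, the enrichment of a summit over its local background, which belongs to its own list, and as the percentile of that fold within the list. Among the 22 members open everywhere, the median fold was 7.57, 7.65, 7.05 and 7.83 in E92K libraries, against 6.64, 6.64, 7.14 and 6.63 in H2A libraries. For all 13345 genes open everywhere it was 8.45, 8.36, 8.40 and 8.65, against 8.14, 8.33, 8.39 and 8.66. The members' median was lower than that of all such genes in each library.

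STAT2 had the highest median percentile of the list, 97.6. Its fold was 11.41, 10.34, 12.27 and 12.29 in E92K libraries, against 11.90, 11.91, 11.04 and 12.88 in H2A libraries, which overlap. IFI6, a small protein of the endoplasmic reticulum and mitochondria, followed with 10.71, 11.06, 9.85 and 10.13, against 9.60, 9.08, 10.85 and 11.34. IRF1 had 9.80, 9.42, 9.61 and 9.49 in E92K libraries, against 8.53, 9.84, 10.26 and 10.03 in H2A libraries, USP18 8.69, 10.37, 10.14 and 8.33, against 9.12, 9.01, 9.06 and 9.04. In each of the 4 the E92K and H2A values overlapped. HERC5 had 10.33, 9.03, 9.59 and 9.36 in E92K libraries, against 9.12, 8.37, 8.16 and 8.83 in H2A libraries, where 1 E92K value lay below the highest H2A value. At the weak end, IRF7 had folds of 4.04, 3.18, 3.66 and 3.08 in E92K libraries, against 2.87, 2.86, 2.55 and 3.54 in H2A libraries, and IFI35 ranged from 2.83 to 3.85.

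Of the members, 2 had folds in every E92K library above those in every H2A library, and none the reverse. Among the 13345 genes open everywhere, 292 (2.19%) lay higher in all E92K libraries and 203 (1.52%) lower. The 2 of the 22 members are IFIT3 and DDX60. This comparison was added after the values were seen, folds come from lists made separately, and no test was applied, so the values stand as a description.

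IFIT3, which stabilises the RNA-binding complex of IFIT1, had the widest gap. Its gene (ENSG00000119917.15) lies at chr10:89327307-89377473 on the plus strand of hg38. The promoter peak had a fold of 7.90, 8.62, 9.24 and 9.38 in E92K libraries, against 5.54, 6.51, 6.0 and 5.81 in H2A libraries. The means were 8.78 ± 0.68 in E92K and 5.96 ± 0.41 in H2A (SD, n = 4 each), a ratio of 1.47, which ranked 6 of 13345 genes. The summit held 32, 40, 40 and 43 fragments in E92K libraries, against 23, 26, 24 and 25 in H2A libraries. Those counts do not overlap either, but they come from the same peaks as the folds. The share of all genes with such a gap in fragments was not computed. All 4 H2A libraries had a higher background than 3 of the 4 E92K libraries, and the part of depth was not tested. The fold's percentile within its list was 75.8, 82.4, 86.1 and 84.5 in E92K libraries, against 55.3, 63.7, 57.4 and 56.2 in H2A libraries.

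Summit positions were not compared over all genes, so the share that separates the groups is not known. In IFIT3, picked by its fold, the position of the summit did not overlap between the groups either. It lay 150, 182, 217 and 234 bp downstream of the canonical TSS in E92K libraries, against 314, 264, 262 and 266 bp in H2A libraries. All E92K summits were therefore nearer to the TSS, within a peak whose covered promoter length overlapped between groups (448, 799, 669 and 620 bp in E92K, against 921, 430, 713 and 611 bp in H2A). IFIT2, its neighbour, had folds of 4.40, 3.20, 4.80 and 6.45 in E92K libraries at its constant upstream region (chr10:89283379-89284583), against 3.50, 3.98, 4.25 and 4.07 in H2A libraries. These overlap, with means of 4.71 ± 1.34 in E92K and 3.95 ± 0.32 in H2A (SD, n = 4 each). IFIT1 had a ratio of mean folds of 1.09 and IFIT5 of 0.98. Whether the difference of IFIT3 exceeds those of its neighbours was not tested.

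DDX60, a helicase-family protein that aids the sensing of viral RNA, showed a smaller gap. Its gene (ENSG00000137628.18) lies at chr4:168216291-168318883 on the minus strand. The promoter fold was 10.78, 10.32, 10.24 and 9.74 in E92K libraries, against 8.94, 9.55, 9.56 and 9.28 in H2A libraries. The ratio of means was 1.10, which ranked 1233 of 13345. The summit fragments overlapped, at 76, 66, 58 and 55 in E92K libraries, against 68, 59, 60 and 66 in H2A libraries. Across the 22 members the median ratio of E92K over H2A was 1.036. Over the 13345 genes the median ratio was 1.007. Among the members, RSAD2 and CMPK2 enter with the same peak, and IFIT2 with peaks at different places. ISG15 enters with its upstream peak, which also covers a start of HES4. At the canonical TSS of ISG15 the mean fold was 3.84 in E92K and 4.19 in H2A libraries.

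**Figure D4:**
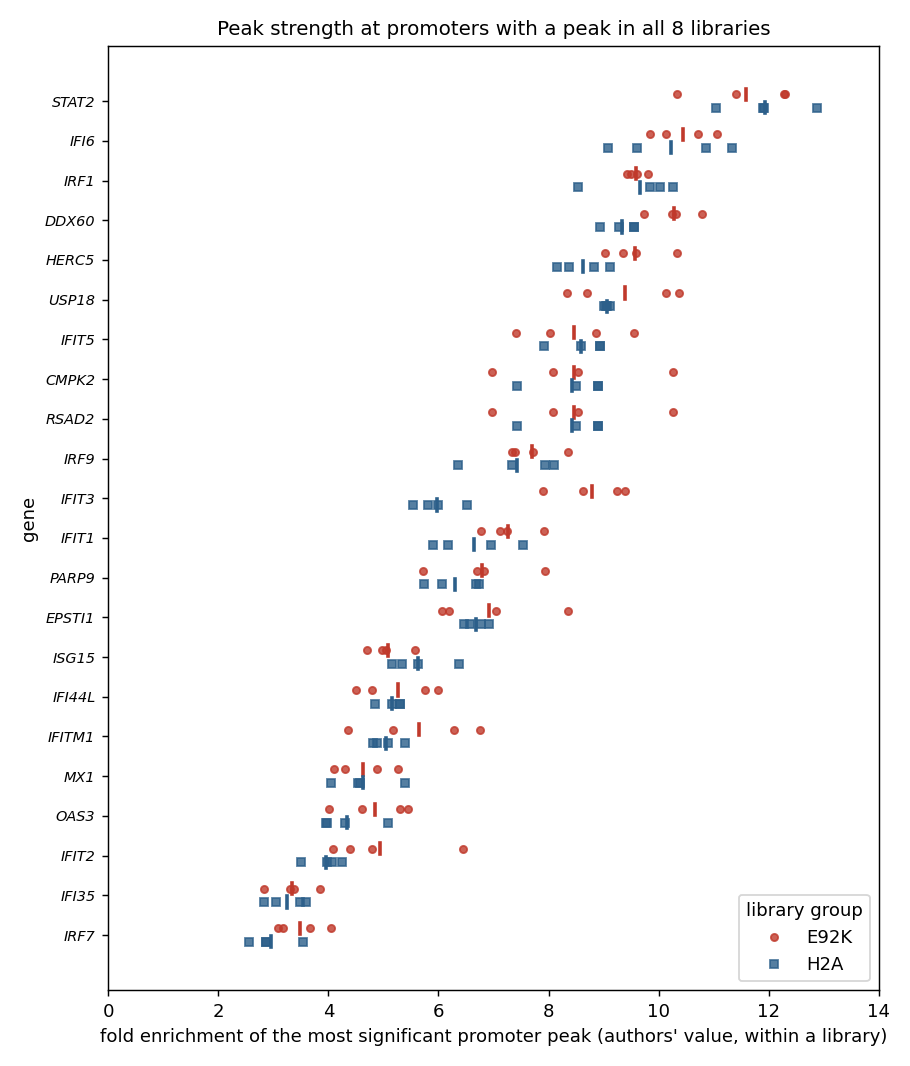
Fold enrichment of the most significant promoter peak in each library for the 22 members open in all 8 libraries, with E92K (circles) above H2A (squares) and vertical bars for group means. In IFIT3 and DDX60 all E92K points lie to the right of all H2A points. CMPK2 and RSAD2 share 1 peak, and the ISG15 points are its upstream peak, which also covers a start of HES4. The IFIT2 point of E92K library 2, at 4.08, is a peak at the canonical TSS, while the other IFIT2 points are the upstream peak.

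The length of promoter covered by peaks was compared by an exact two-sided permutation test over the 70 assignments of 8 libraries, with Benjamini-Hochberg adjustment over the 14588 genes with any promoter peak. It was higher in all E92K libraries for 115 genes (0.788%) and lower in all for 442 (3.03%). No member was among either. No gene passed the adjustment of the permutation test (smallest adjusted p = 0.7483), and 557 genes, no member among them, had an unadjusted p below 0.05. The median difference of E92K minus H2A was 1.9 bp in the 22 members open everywhere, 12 higher and 10 lower. Over all genes open everywhere it was -18.8 bp, with 37.1% higher in E92K. DDX60 came nearest to separation, with 674, 1041, 920 and 998 bp in E92K libraries, against 658, 664, 544 and 772 bp in H2A libraries. All but 1 E92K value exceeded the highest H2A value (exact permutation p = 0.0571 before adjustment).

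Over the whole gene spans of the members, 52 merged regions were counted by gene, of which 29 were present in all 8 libraries and 7 in 1. The region that RSAD2 and CMPK2 share, present in all 8 libraries, is counted for each. Among 55758 regions over protein-coding genes, 63 (0.113%) were present in 4 E92K and 0 H2A libraries and 90 (0.161%) in 0 E92K and 4 H2A libraries. None of the 52 regions over members was. The same exact test, adjusted over the 55758 regions, passed none, and 153, none over a member, had an unadjusted p below 0.05. Of the 52, 4 (7.69%) were called in more E92K libraries and 14 (26.9%) in more H2A libraries. Of the 55758 regions, 21.3% were called in more E92K libraries and 26.9% in more H2A libraries.

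Outside promoters, 22 regions lay over the spans of 16 members, 7 of them present in all 8 libraries. BST2 and IFITM3, whose promoters were open in no library, each held 1. The BST2 region, at chr19:17403101-17404095 and touching an exon, had folds of 7.29 to 8.99 in E92K libraries and 7.50 to 9.10 in H2A libraries. The IFITM3 region, at chr11:329045-329895, had 8.84 to 9.98 in E92K libraries and 8.87 to 9.98 in H2A libraries. It covers base 329475, the annotated start of a protein-coding transcript outside the basic set and the 5′ end of the gene span. With the starts of all protein-coding transcripts counted, IFITM3 was open in 4 of 4 E92K and 4 of 4 H2A libraries, IFITM2 in 3 of 4 and 3 of 4, and no other member changed. In each library both folds exceeded the median promoter fold of the 22 members open everywhere. The others were intronic in MX1 (chr21:41460420-41461234), over a start outside the basic set in IRF1 (chr5:132495816-132497272), exon-touching in USP18 (chr22:18156894-18157649), and a pair in EPSTI1 (chr13:42969342-42970331 and chr13:42970391-42971355). In MX1 the fold was 4.69, 6.35, 6.49 and 5.22 in E92K libraries, against 7.30, 6.25, 8.39 and 6.81 in H2A libraries, which overlap.

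A further 4 regions were present in 1 library of one group and all 4 of the other, each with a Fisher's exact p of 0.1429 before adjustment and 1.0 after it. RSAD2 held one near its 3′ end, touching an exon at chr2:6896986-6897903. It was present in 4 of 4 E92K and 1 of 4 H2A libraries, with folds of 3.81, 2.99, 3.09 and 4.61 in E92K libraries, against 3.31 in H2A library 4 alone. The other 3 leaned the other way, in 1 of 4 E92K and 4 of 4 H2A libraries. They were in STAT2 (chr12:56346592-56346971), in IFI6 (chr1:27669271-27669568) and near the upstream start of ISG15 (chr1:1001621-1002049). The folds of the 4 regions lay between 2.20 and 4.97, below the median promoter fold of the members open everywhere in each library. The background fragment level was 2.522 to 2.929 in H2A libraries and 2.234 to 2.677 in E92K libraries, and its part in these calls was not tested.

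IRF1 had the most regions of the 37 members, 1 at its promoter and 5 outside the exons of its basic transcripts, on both sides of the canonical TSS. A region at chr5:132505857-132506732, named after its values were seen, was centred -15521 bp from the canonical TSS, upstream of the starts of the basic transcripts. It had folds of 6.79, 7.41 and 6.20 in E92K libraries 1 to 3 and no peak in library 4. In H2A libraries the folds were 5.13, 4.89, 4.15 and 4.40. Where called, the E92K folds were all higher, yet the call was missing in 1 E92K library (exact p = 1.0 for presence).

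The promoters of further genes of the pathway, ligands to regulatory factors, gave the context. Of 21 interferon ligand genes 0 had an open promoter in all libraries, and IFNW1 was open in 1 E92K library with 263 covered bp. All 6 receptor genes (IFNAR1, IFNAR2, IFNGR1, IFNGR2, IFNLR1 and IL10RB) were open in all 8 libraries, as were the kinases JAK1, JAK2 and TYK2 and the inhibitors SOCS1, SOCS3 and PTPN2. Of the other interferon regulatory factors, IRF2, IRF3 and IRF8 were open in all 8 libraries and IRF4 and IRF5 in none. None of these ligand, receptor, kinase, inhibitor and regulatory factor genes separated E92K from H2A libraries by presence.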

How the data were processed

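ATAC-seq was analysed in 8 HEK293T libraries, grouped by sample title into 4 E92K and 4 H2A. The authors deposited 1 peak list per library, without a header, in narrowPeak layout; reads were aligned to hg38 per the labels. No source used here gives the aligner, peak caller, Tn5 shift or duplicate handling, and each can change peak widths and calls. The deposited score is 10 times the −log10 q. The deposited fold is a ratio of summit to local background, and the authors' p-value and q-value are stored as −log10, with a minimum −log10 q of 2.0.

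A peak was a distinct interval, represented by its most significant summit. Fragments per summit (n) and background (b) were recovered from fold = (n + 1)/(b + 1) and the Poisson p, which matched within 0.001 of the −log10 p for 100.0% of summits. Total reads were not analysed here. Presence (1 bp or more), covered length and merged regions were computed with GENCODE version 44, Python 3.11.15, numpy 2.4.6, pandas 2.3.3 and scipy 1.17.1. Calls were complete separation of the groups. Tests used all genes or regions and were checked on simulated data. Alternatives were windows of 500 and 2000 bp, other TSS sets, 200 bp coverage, a share of 0.5 of a region covered, a q-value of 1e-05, equal list lengths, leaving out each library, and a replicate block.

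A few pathway genes are not reported here. The members and lists were chosen with earlier results of these data known. Named in full are members open in some or no library, those whose values separated the groups, and the 6 with the highest median percentile. Sequences are shown for up to 4 members per state whose promoter holds the ISRE core, highest median fold first. The comparison of folds was added after the values were seen.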

Additional observations from a re-analysis of the deposited data

Results flagged for a closer look

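Of 88 groups of 4 library values from members open everywhere, 4 had 1 library far from the other 3. Distance was judged by the gap of that library relative to the group's range. All 4 were in covered promoter length. That measure makes up only part of the 88, so its share of flagged groups is higher than 4 of 88. Chance alone marks about 1 in 20 groups. IFIT2 had 1945 bp in the second E92K library, against 546, 512 and 731 bp in the other E92K libraries. That library alone among the E92K libraries had a peak at the canonical TSS of IFIT2. OAS3 had 836 bp in the first E92K library, against 338, 336 and 284 bp in the others. IFI6 had 751 bp in the second H2A library, against 503, 508 and 480 bp in the others. HERC5 had 1301 bp in the fourth H2A library, against 1206, 1210 and 1194 bp in the others.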

How the results depend on the processing

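No member's promoter separated the groups by presence under any alternative run. Depth limits weak peaks, and with 4 libraries a group no adjusted p could pass unless many features reached the smallest p together. Genes with a promoter peak in every E92K and no H2A library numbered 3 with a 500 bp window or at least 200 bp covered, and 2 with the canonical TSS only, a q-value of 1e-05 or less, or equal list lengths; the reverse numbered 2 with a 500 bp window. With at least 0.5 of a region covered, 1 member region separated the groups, in H2A only: IRF1 at chr5:132505857-132506732. OASL's difference in the share of libraries with a promoter peak turned to 0.25 higher in E92K at a q-value of 1e-05 or less. Members open in all libraries numbered 17 to 24 over the alternatives.

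Leaving out each library in turn, which makes separation easier, gave 1 to 8 genes (E92K only) and 7 to 12 (H2A only) by promoter presence, 95 to 163 and 140 to 204 regions, and 0 to 2 member regions. Covered length gave 179 to 340 genes higher and 580 to 933 lower, with 0 to 2 members higher and 0 to 1 lower. Fold gave 437 to 720 genes higher and 275 to 476 lower, with 2 to 4 members higher and 0 to 1 lower; IFIT3 and DDX60 were among the higher each time. By covered length, DDX60 and SAMD9 separated without the first E92K library, DDX60 and MX1 without the fourth H2A library (higher in E92K), and IFIT1 without the first H2A library (lower). Member regions separated in STAT2 and IFI6 without the second E92K library, in ISG15 without the third E92K library (all H2A only), and in RSAD2 without the fourth H2A library (E92K only). The cause was not tested.

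Same-numbered libraries did not deviate together (correlations of -0.172 to -0.033, against -0.124 to 0.199 for libraries of different numbers). Such correlations cannot decide whether libraries of the same number were prepared together. With a replicate block, calling genes that moved one way in all 4 pairs, covered length gave 480 genes higher and 1344 lower, with 1 member higher (DDX60) and 1 lower (IFIT1). Fold gave 1204 higher and 793 lower, with 4 members higher (IFIT2, IFIT3, DDX60 and HERC5). IFIT2 counts there and without the third H2A library only through the peak at its canonical TSS in the second E92K library (4.08); at the upstream region that library has 3.20, against 3.98 in the second H2A library.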
